A study of Homo sapiens with 6 samples.

Results

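The heat shock chaperones described here are 10 genes, HSPA1A, HSPA1B, HSPA6, DNAJB1, HSPH1, BAG3, HSPA8, HSP90AA1, HSPB1 and CRYAB, taken by symbol from the 36601 genes of the count matrices. All 10 were present. They were measured by droplet single-cell RNA sequencing of retinal organoid fragments made from WA09 CRX-tdTomato, an established human embryonic stem cell line whose reporter marks cells that use the photoreceptor transcription factor CRX. Transplanted fragments were placed under the retina of normal dog eyes and taken out 3 days later, and cultured fragments of the same organoid batch stayed in a dish over the same 3 days. Both had been broken up by trituration on organoid days 113 to 126, and the experiment was done 3 times (Sets 1, 2 and 3), giving 3 transplanted and 3 cultured samples. Cells were divided by raw UMI counts (unique molecular identifiers, 1 per captured RNA molecule) into rods (NRL of at least 3), cones (PDE6H of at least 3 and above NRL), Müller glia (HES5, WIF1 and TTYH1 of at least 3 in sum) and all other cells.

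Chaperones hold unfolded proteins and help them to fold. On heat or other proteotoxic stress, heat shock factor 1 is released from chaperones, binds arrays of inverted GAA units in promoters and switches on the inducible members, while other members are abundant in unstressed cells. HSPA1A and HSPA1B encode the same major inducible HSP70 protein and HSPA6 a human HSP70 that is nearly silent without stress. DNAJB1 (HSP40) delivers clients to HSP70, HSPH1 (HSP110) and BAG3 exchange its nucleotide, and BAG3 also links it to autophagy. HSPA8 is the constitutive HSP70, HSP90AA1 is an abundant HSP90 that heat raises further, and HSPB1 and CRYAB are small heat shock proteins that hold clients without using ATP. In the retina CRYAB and HSPB1 are known from Müller glia and astrocytes, and CRYAB is a major protein of the lens.

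The promoter stretches of the members that the results turn on are shown with that of the more constitutive HSP90AA1, because they carry the inverted GAA units that heat shock factor reads. They come from RefSeq (GRCh38.p14), 5′ to 3′ on the gene's strand, and capitals mark the letters of each match to GAANNTTC or TTCNNGAA, which together, overlapping, make a 3-unit array.
HSPA1A, chr6:31815425-31815456, plus strand: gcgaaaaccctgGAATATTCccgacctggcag
HSPA1B, chr6:31827621-31827652, plus strand: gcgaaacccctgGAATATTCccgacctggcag
HSPA6, chr1:161524348-161524490, plus strand: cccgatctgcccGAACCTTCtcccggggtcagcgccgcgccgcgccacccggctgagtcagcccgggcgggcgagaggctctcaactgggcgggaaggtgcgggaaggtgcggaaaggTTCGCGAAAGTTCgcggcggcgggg
DNAJB1, chr19:14518425-14518486, minus strand: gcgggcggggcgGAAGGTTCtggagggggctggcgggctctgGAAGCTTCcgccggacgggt
HSP90AA1, chr14:102087093-102087144, minus strand: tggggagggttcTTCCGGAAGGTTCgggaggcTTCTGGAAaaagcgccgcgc
HSPA1A and HSPA1B share the same 8 letters, 106 and 105 bases before their RefSeq starts, and 94.4% of 249 aligned bases of their promoters were identical. DNAJB1 held a pair of separate matches, and HSPA6 and HSP90AA1 each held a 3-unit array, 74 and 88 bases before the start. Windows from 250 bases before to 50 after a start were at hand for 9 members. An 8-letter match on either strand was found in 7 of these 9, against 16.2% of 27305 genes, and the 13-letter array, which contains both 8-letter motifs, in 3 (HSPA6, HSPA8 and HSP90AA1), against 0.608%. The windows of HSPH1 and BAG3 held neither. Whether these stretches were bound was not measured.

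After filters the transplanted samples of Sets 1, 2 and 3 kept 7321, 690 and 4632 cells, and the cultured samples 15336, 9744 and 1857, with median UMIs per cell between 2119 and 4112. The smallest class sums came from 25 transplanted Müller glia of Set 2 and 31 cultured Müller glia of Set 3. Any pair of libraries shared at most 41 cell barcodes (at most 0.870% of the smaller library). As a check of the class names, markers beside the rule's own were summed as CPM (UMIs of a class scaled to 1000000 per sample). Rod markers were 2.10 to 3.76 times higher in rods than in cones, and Müller markers 2.02 to 4.46 times higher in Müller glia than in rods, in each of the 6 samples. Müller markers summed to 8022, 7972 and 7912 CPM in transplanted and 7408, 8520 and 3906 in cultured Müller glia. In other cells they summed to 6731, 1538 and 1158 in transplanted and 6889, 2947 and 1095 in cultured samples. The Müller glia class thus stood little apart from other cells in Set 1. Cone markers were only 1.07 to 1.74 times higher in cones than in rods, so the cone class stood less apart. Rods that also met the Müller glia rule held 68.6%, 72.0% and 49.6% of the UMIs of transplanted rods and 58.5%, 64.5% and 31.3% of those of cultured rods, from 38.3%, 14.6% and 12.1% of transplanted and 39.2%, 22.6% and 9.83% of cultured rods. The rod sums thus came in large part from cells with markers of both classes. The cone sums did too: cones that also met the Müller glia rule held 58.25%, 42.9% and 64.9% of transplanted cone UMIs. In cultured cones they held 50.2%, 61.2% and 34.3%. The cultured sample of Set 3 stood apart, with the lowest median share of mitochondrially encoded UMIs of the 6 samples (0.876%) and a high share of clone-named transcripts (4.05% of a rod's UMIs at the median, against 2.69% in transplanted rods of the same Set). Class sums of transplanted against cultured cells were tested with edgeR's quasi-likelihood test with the Set as a block, and adjusted p-values are by Benjamini-Hochberg over all genes tested.

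In the rods of transplanted fragments, the inducible HSP70 gene HSPA1A and its J-domain partner DNAJB1 rose, and no other tested member was called. These are 2 of the 9 members tested, beside 2.14% of 18053 genes called higher in rods. HSPA6 did not pass the filter on low counts in rods and Müller glia and was not tested there. In cones HSPA1A alone rose (1 of 10 members, against 0.238% of 17620 genes), in Müller glia HSPA1B alone (1 of 9, against 0.167% of 13783), and in other cells HSPA6, HSPA1A and HSPA1B (3 of 10, against 0.371% of 18619). No member was called lower in any class, where 2.12%, 0.318%, 0.232% and 0.338% of genes were in rods, cones, Müller glia and other cells. All calls rest on the pairing by Set: without the Set term edgeR called 0 genes in every class, with 501 genes at an unadjusted p under 0.05 in rods, 315 in cones, 124 in Müller glia and 195 in other cells. The members' median log2 change was 0.61 in rods, 0.47 in cones, 0.56 in Müller glia and 0.62 in other cells, and that of all genes tested was -0.02, -0.03, 0.0025 and -0.03. Over all alternatives the highest adjusted p of each called change was 1.0, that without the Set term, and the lowest was 3.92e-14 for HSPA1A and 0.0102 for DNAJB1 in rods, 6.66e-06 for HSPA1A in cones, 0.0212 for HSPA1B in Müller glia, and 6.38e-11, 1.87e-08 and 0.000105 for HSPA6, HSPA1A and HSPA1B in other cells (edgeR or DESeq2).

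**Figure D1:**
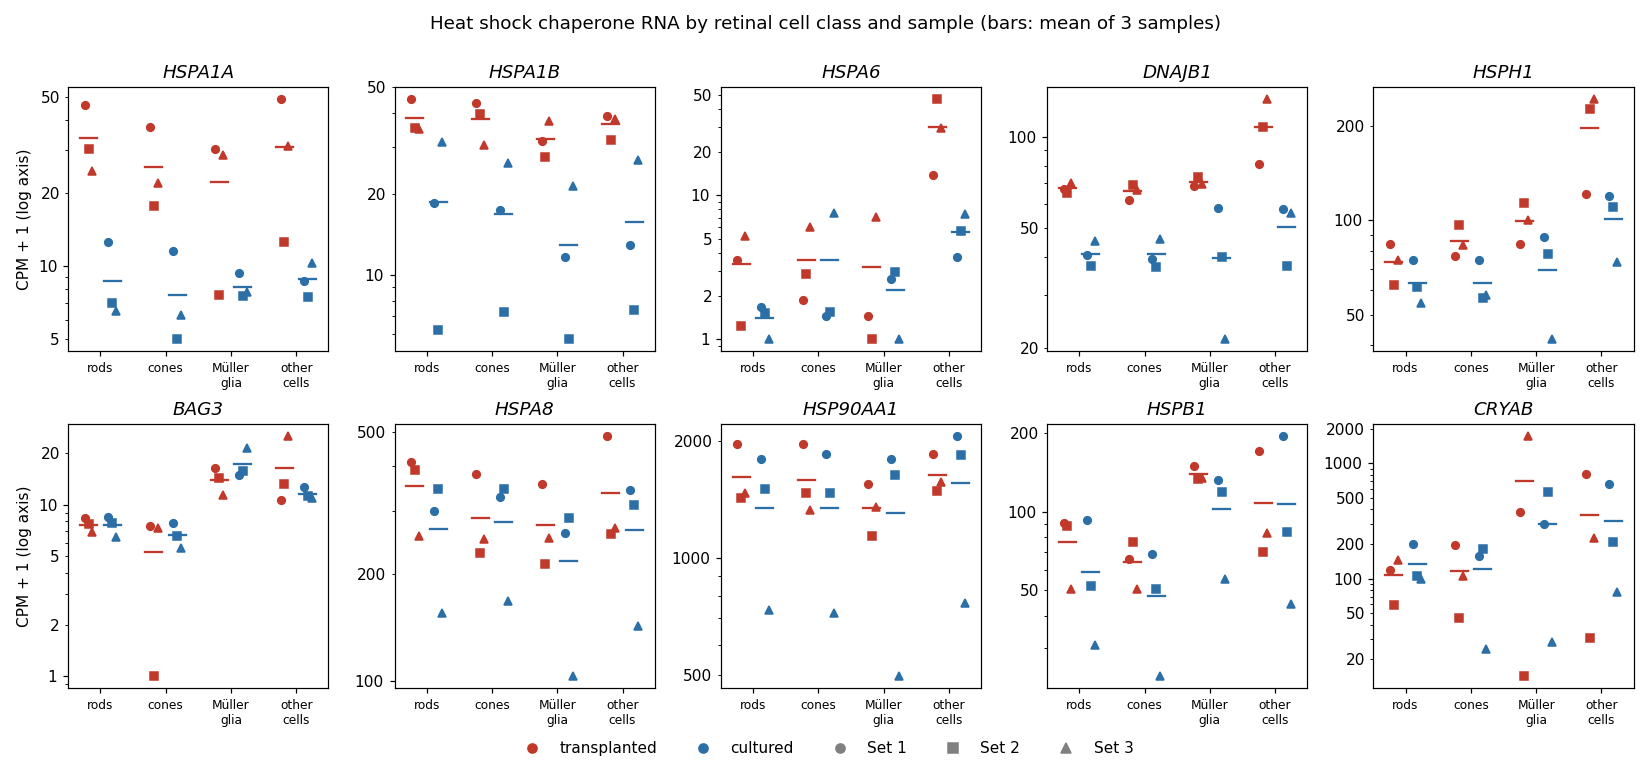
CPM plus 1 (log axis) of each member in rods, cones, Müller glia and other cells, with transplanted samples on the left in red, cultured ones on the right in blue, 1 symbol per Set and a bar at the mean of 3 samples. HSPA1A in rods lay between 23.6 and 45 CPM in transplanted samples and between 5.52 and 11.5 in cultured ones, while HSP90AA1 and HSPA8 overlapped between the groups in every class.

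HSPA1A (ENSG00000204389, chromosome 6, 31815464 to 31817946, plus strand, 1 exon, GRCh38) had 45, 29.3 and 23.6 CPM in transplanted rods of Sets 1, 2 and 3, against 11.5, 6.01 and 5.52 in cultured rods. The lowest transplanted value was above the highest cultured one, and the log2 change was 2.25 ± 0.22 (SE, adjusted p = 2.70e-05), a 4.76-fold rise. This call held in 11 of the 11 alternative settings that kept the Set term. Without the rods that also met the Müller glia rule, HSPA1A had 47.2, 23.1 and 17.9 in transplanted and 10.6, 5.57 and 8.03 in cultured rods, again without overlap (1.90, edgeR adjusted p = 0.00196). Other markers moved in the same rods. All 5 markers of dividing progenitors were called lower, summing to 112, 46.8 and 72.9 CPM in transplanted and 581, 180 and 220 in cultured rods, and cone markers summed to 91.9, 152 and 209 in transplanted and 246, 316 and 669 in cultured rods (1 of 6 tested called, lower). Called higher were also 1 of 8 Müller glia, 1 of 7 pigment epithelium, 1 of 5 bipolar and 1 of 1 T cell markers tested. Called lower were 1 of 7 rod, 1 of 5 amacrine, 1 of 4 horizontal, 1 of 4 ganglion and 1 of 3 astrocyte markers. Of all genes, 2.14% were called higher and 2.12% lower in rods. The part of these markers in the chaperone changes was not tested. In cones HSPA1A had 36.4, 16.6 and 21.1 in transplanted and 10.5, 3.99 and 5.28 in cultured samples, again without overlap (log2 change 1.93 ± 0.29, edgeR adjusted p = 0.00865, and 0.0721 without Set 2). In Müller glia the values were 29.3, 6.62 and 27.8 in transplanted against 8.33, 6.50 and 6.80 in cultured samples. There Sets 1 and 3 stood apart and Set 2 did not, but the transplanted value of Set 2 and the cultured value of Set 3 each rested on 1 UMI, in 25 and 31 cells. At these depths 0 UMIs would allow up to 19.8 and 20.4 CPM. The change missed the threshold (1.73 ± 0.45, edgeR adjusted p = 0.0572; 1.98 with adjusted p = 0.0357 without Set 2). In other cells HSPA1A had 47.7, 11.6 and 30.2 in transplanted and 7.67, 6.42 and 9.27 in cultured samples, a rise of 1.79 ± 0.33 (edgeR adjusted p = 0.0317) that lost its call without Set 1 (1.30, adjusted p = 0.478).

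The rise of HSPA1A did not differ detectably between rods, cones and Müller glia. Other cells were not compared with them in this way. The difference of its log2 change was 0.01 ± 0.20 for cones minus rods, -0.16 ± 0.36 for Müller glia minus rods and -0.06 ± 0.36 for Müller glia minus cones (SE, edgeR interaction with the sample as a block, adjusted p of 1.0 for each). No member was called in these 3 comparisons, where 0.0205%, 0.0% and 0.127% of genes were. The size of these SEs limits what could be seen.

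HSPA1B (ENSG00000204388, chromosome 6, 31827735 to 31830255, plus strand, 1 exon), the neighbouring copy, had 44.1, 34.3 and 33.9 CPM in transplanted rods and 17.6, 5.21 and 30.2 in cultured rods. The groups did not overlap, but the gap within Set 3 was small, since its cultured rods were already high (log2 difference 0.16, against 1.28 in Set 1 and 2.51 in Set 2). The change in rods was 1.57 ± 0.39 with an edgeR adjusted p of 0.0564, and 9 of 11 alternatives with the Set term put it past the threshold. In Müller glia HSPA1B had 30.5, 26.5 and 36.5 in transplanted and 10.6, 4.76 and 20.4 in cultured samples. This rise of 1.70 ± 0.43 (edgeR adjusted p = 0.0441) was fragile, called in 3 of 10 alternatives with the Set term and at an adjusted p of 0.662 by DESeq2, and transplanted Set 2 and cultured Set 3 held 4 and 3 UMIs. In other cells it had 38.2, 30.7 and 37.1 in transplanted against 11.9, 6.42 and 25.9 in cultured samples (1.42 ± 0.29, edgeR adjusted p = 0.0486, and 0.439 without Set 1). In cones it was higher in 3 of 3 Sets without a call (1.38 ± 0.33, edgeR adjusted p = 0.0982). How reads were divided between the copies is uncertain near their shared sequence: 60 of 411 windows of 90 bases in the last 500 bases of the HSPA1A transcript were also found in HSPA1B, against 0 of 411 the other way.

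HSPA6 (ENSG00000173110, chromosome 1, 161524540 to 161526910, plus strand, 1 exon) was nearly silent in rods, cones and Müller glia, at 0 to 6.60 CPM. In rods, where it was not tested, it had 2.56, 0.240 and 4.18 CPM in transplanted and 0.667, 0.519 and 0 in cultured samples. These rested on 31, 1 and 78 UMIs in transplanted and 8, 26 and 0 in cultured rods. A count of 0 in cultured rods of Set 3 allows up to 1.10 CPM at 3 counts. In other cells HSPA6 rose by 2.54 ± 0.31 on the log2 scale, 5.80-fold (edgeR adjusted p = 0.00377). It had 12.8, 45.7 and 28.7 in transplanted and 2.71, 4.66 and 6.39 in cultured samples there. The groups did not overlap, and 10 of 10 alternatives with the Set term kept the call. Few cells carried it: in other cells 89, 67 and 245 UMIs came from 15, 6 and 67 transplanted cells, and 52, 95 and 20 UMIs from 11, 25 and 7 cultured cells. In Set 2, 1 transplanted cell held 49 of the 67 UMIs. Without the cell richest in HSPA6 of each sample the values were 8.51, 12.4 and 21.8 in transplanted and 1.20, 3.48 and 3.84 in cultured samples, still without overlap.

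In other cells of transplanted samples, myeloid markers were also higher in 3 of 3 Sets, and blood markers in 2 of 3, not in Set 1. Myeloid markers summed there to 56.5, 64.9 and 42.9 CPM in transplanted and 2.66, 10.2 and 11.5 in cultured samples, and blood markers to 0.577, 176 and 342 in transplanted and 0.678, 3.28 and 4.16 in cultured samples. In rods the myeloid sums were 3.55, 2.40 and 4.24 in transplanted and 1.5, 2.42 and 5.52 in cultured samples, with 7 of 8 markers under 1 CPM, and all 7 blood markers were under 1. Dog reads can align to human genes, and few should match transcripts named only by a clone. With cells of a low clone-named share dropped, the myeloid sums of other cells were 23.3, 12.9 and 14.1 in transplanted and 2.65, 10.1 and 11.6 in cultured samples, and the blood sums 0.629, 185 and 9.93 in transplanted and 0.690, 3.33 and 4.2 in cultured samples. HSPA6 then had 14, 48.0 and 28.4 CPM in transplanted and 1.22, 4.73 and 6.46 in cultured samples (2.95, edgeR adjusted p = 0.000380). The drop thus lowered the myeloid sum in all 3 transplanted samples and left the blood sum of Set 2. It also removed 154, 98 and 19 cultured cells, and HSPA6 in cultured Set 1 went from 2.71 to 1.22 CPM. In Set 3 the limit of 1.83% came from the cultured sample with its high share. There 1167 of 1277 transplanted rods and 52 of 118 transplanted Müller glia stayed. The part of cells with myeloid or blood markers, or of the dropped cells, in the HSPA6 values was not tested.

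**Figure D2:**
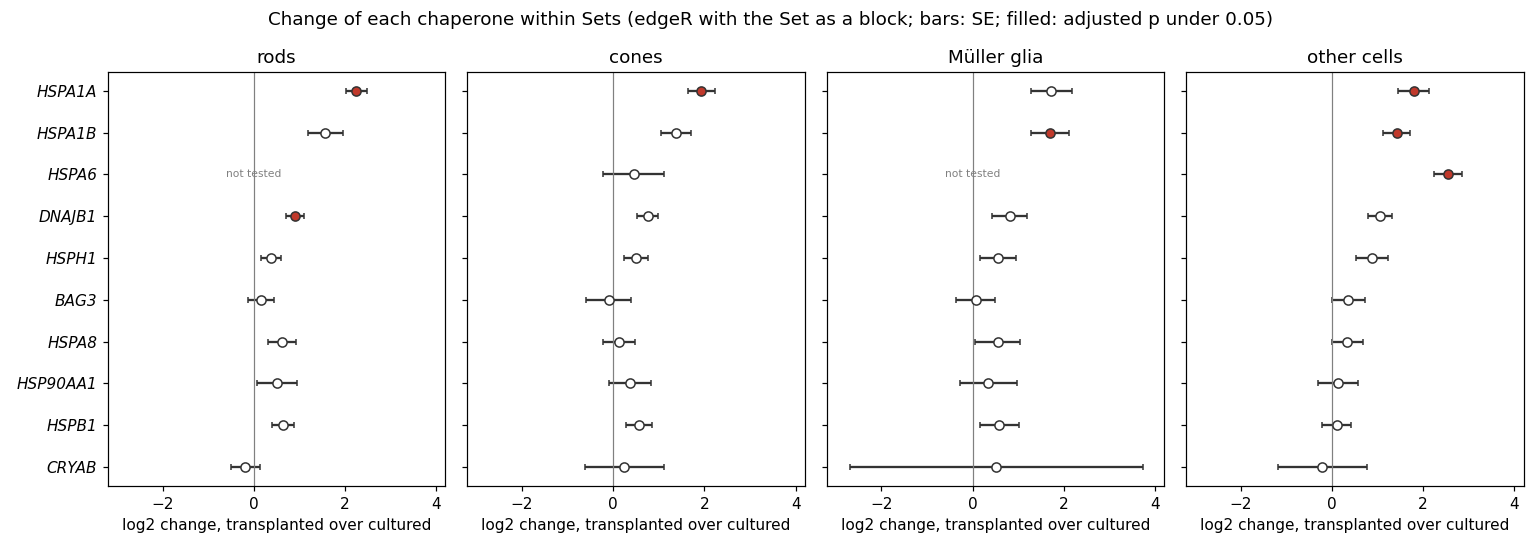
Log2 change of each member, transplanted over cultured, in the 4 classes (edgeR with the Set as a block, bars are SE, filled points have an adjusted p under 0.05). HSPA6 was not tested in rods and Müller glia. HSPA1A lies between 1.73 and 2.25 in every class, DNAJB1 between 0.76 and 1.05, and the bar of CRYAB in Müller glia spans 3.21 either way.

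DNAJB1 (ENSG00000132002, chromosome 19, 14514770 to 14529770, minus strand) had a narrow spread within the groups. Transplanted rods had 66.1, 64.1 and 69.4 CPM and cultured rods 39.7, 36.3 and 44.1, a rise of 0.90 ± 0.21 (edgeR adjusted p = 0.0195). The call was lost without Set 2 (0.87, adjusted p = 0.0786), without Set 3 (0.85, adjusted p = 0.0688) and when cells meeting 2 class rules were dropped (0.73, adjusted p = 0.0591). Its transplanted values were above all cultured ones in the other 3 classes too, without a call (edgeR adjusted p of 0.192, 0.670 and 0.113 in cones, Müller glia and other cells). In cones DNAJB1 had 60.6, 68.2 and 65.8 CPM in transplanted and 38.4, 36.2 and 44.9 in cultured samples. In Müller glia it had 67.9, 72.8 and 68.6 in transplanted and 56.9, 39.0 and 20.4 in cultured samples, the last from 31 cells. In other cells it had 80.3, 106 and 132 in transplanted and 56.8, 36.5 and 55.0 in cultured samples. By this measure alone, no overlap with transplanted higher, 3 members qualified in rods (beside 4.28% of genes tested), 4 in cones (4.56%), 3 in Müller glia (2.59%) and 5 in other cells (2.82%).

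The nucleotide exchange factors of HSP70 were not called in any class. HSPH1 (chromosome 13) was measured in other cells at 120, 225 and 242 CPM in transplanted and 119, 109 and 72.6 in cultured samples. Sets 2 and 3 differed widely there and Set 1 hardly (log2 change 0.88 ± 0.35, edgeR adjusted p = 0.311). In cones it had 75.8, 95.9 and 82.6 in transplanted and 73.6, 55.5 and 56.7 in cultured samples, without overlap (0.50 ± 0.26, edgeR adjusted p = 0.488). In rods HSPH1 overlapped, with 82.7, 61.2 and 73.9 in transplanted and 73.5, 60.1 and 53.3 in cultured samples. BAG3 (chromosome 10) was nearly level in rods, with 7.34, 6.72 and 5.90 in transplanted and 7.50, 6.77 and 5.52 in cultured samples (0.16 ± 0.29, edgeR adjusted p = 0.819; -0.25 without cells meeting 2 class rules). In other cells BAG3 had 9.66, 12.3 and 24 in transplanted and 11.6, 10.2 and 9.91 in cultured samples, where only transplanted Set 3 stood out (0.36 ± 0.36, edgeR adjusted p = 0.727). In cones 34 transplanted cells of Set 2 gave 0 BAG3 UMIs, which allows up to 5.53 CPM. In rods HSPA1A had a log2 change of 2.25 and BAG3, also a target of heat shock factor 1, had 0.16. BAG3 rested there on 28 UMIs in transplanted Set 2 and 15 in cultured Set 3. The reason for this difference was not tested.

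The constitutive members gave no call either, and the cultured sample of Set 3 was the lowest for both in every class. HSPA8 (chromosome 11) had 409, 391 and 253 CPM in transplanted rods and 299, 343 and 154 in cultured rods (0.61 ± 0.31, edgeR adjusted p = 0.300). HSP90AA1 (chromosome 14) had 1959, 1424 and 1465 in transplanted rods and 1792, 1501 and 734 in cultured rods (0.51 ± 0.44, edgeR adjusted p = 0.574). Transplanted minus cultured rods differed by log2 0.13 in Set 1, -0.08 in Set 2 and 1.0 in Set 3. In other cells HSP90AA1 had 1848, 1483 and 1563 in transplanted and 2049, 1840 and 767 in cultured samples, lower than cultured in Sets 1 and 2 and higher in Set 3. In Müller glia the pattern was the same, with 1551, 1138 and 1347 in transplanted and 1791, 1634 and 497 in cultured samples. Without Set 3 the change of HSP90AA1 in rods was 0.10, and that of HSPA8 was 0.39.

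Of the small heat shock proteins, HSPB1 (chromosome 7) had 89.6, 86.9 and 49.8 CPM in transplanted rods and 92.1, 51.0 and 29.8 in cultured rods (0.64 ± 0.25, edgeR adjusted p = 0.163). The groups overlapped, and the change was called only without Set 1 (0.99, edgeR adjusted p = 0.0388). Without cells meeting 2 class rules its direction turned (-0.32, edgeR adjusted p = 0.560). In Müller glia HSPB1 had 148, 132 and 134 in transplanted and 131, 118 and 54.4 in cultured samples, without overlap and without a call (0.59 ± 0.43, edgeR adjusted p = 0.985). CRYAB (chromosome 11) varied widely, at 375, 13.2 and 1717 in transplanted and 300, 569 and 27.2 in cultured Müller glia, in opposite directions in Sets 2 and 3. In rods its change was -0.19 ± 0.32 (edgeR adjusted p = 0.799), but it was called lower when cells meeting 2 class rules were dropped (-1.26, adjusted p = 0.0135) and when cells with a low clone-named share were dropped (-0.86, adjusted p = 0.0241).

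CRYAB sums rested on a handful of cells. In transplanted samples of Sets 1, 2 and 3, 44, 5 and 5 cells held at least 50% of its UMIs, and in cultured samples 57, 12 and 3 cells did. The richest transplanted cell, a rod by the rule in Set 3, carried 1564 of the 7852 CRYAB UMIs of its sample. Lens markers summed to 2099, 3.67 and 8.99 CPM in these cells of the transplanted samples and to 14733, 6141 and 52.7 in those of the cultured samples. In the remaining cells they were 14.1, 6.17 and 18.7 in transplanted and 65.8, 10.8 and 10.1 in cultured samples. Lens markers were thus far higher in the CRYAB-rich cells in transplanted Set 1 and cultured Sets 1 and 2, higher in cultured Set 3 at a low level, and slightly lower in transplanted Sets 2 and 3. Astrocyte markers summed to 402, 12.2 and 198 CPM in the CRYAB-rich cells of transplanted and 484, 209 and 169 in those of cultured samples, against 27.6, 5.45 and 6.40 in the remaining transplanted and 53.3, 12.3 and 13.8 in the remaining cultured cells. They were higher in the CRYAB-rich cells in 6 of 6 samples, as were Müller glia markers, with 8365, 4480 and 5351 in transplanted and 9503, 10673 and 2708 in cultured samples, against 5324, 2670 and 1828 in the remaining transplanted and 5460, 4088 and 1128 in the remaining cultured cells. Markers of the retinal pigment epithelium summed to 8312, 419 and 213 in the CRYAB-rich cells of transplanted samples and 987, 195 and 119 in their remaining cells. In cultured samples they summed to 72.4, 121 and 126 in the CRYAB-rich cells and 1357, 466 and 75.0 in the remaining cells. They were thus lower in the CRYAB-rich cells of cultured Sets 1 and 2 and higher in those of the other samples. Mural cell and fibroblast markers summed to 275, 22.0 and 222 in transplanted and 298, 200 and 31.6 in cultured CRYAB-rich cells. In the remaining cells they summed to 75.7, 31.8 and 26.3 in transplanted and 84.8, 68.4 and 30.7 in cultured samples. Ganglion cell markers were higher in the CRYAB-rich cells of both samples of Set 1, cultured Set 2 and transplanted Set 3, and lower in the other samples. The part of these markers in the CRYAB values was not tested.

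**Figure D3:**
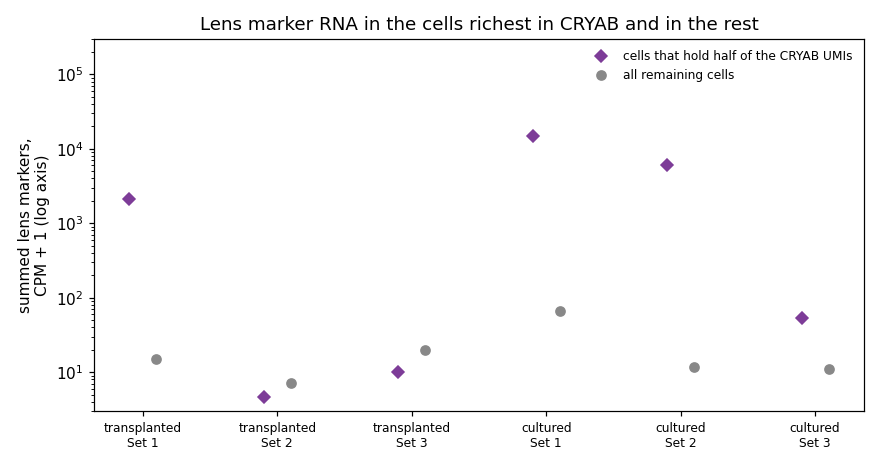
Summed lens markers, CPM plus 1 (log axis), in the cells that together hold at least 50% of a sample's CRYAB UMIs (diamonds) and in all remaining cells (circles), per sample. The diamonds lie at 2099 in transplanted Set 1 and at 14733 and 6141 in cultured Sets 1 and 2, and at or under 52.7 in the other 3 samples.

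Set against each other as sums, the inducible members gained on the constitutive ones (HSPA8 and HSP90AA1) in Sets 1 and 2 of every class. Each UMI stands for 1 molecule tagged at its 3′ end, so the sums were not scaled by length. In rods the inducible sum was 10.5%, 10.8% and 12.3% of the constitutive sum in transplanted samples and 7.20%, 6.23% and 15.6% in cultured samples. Transplanted rods were higher in Sets 1 and 2 and lower in Set 3. The log2 ratio, transplanted minus cultured, was 0.54, 0.79 and -0.35 in rods, 0.51, 1.13 and -0.27 in cones, and 0.45, 1.19 and -0.23 in Müller glia. In Set 3 the inducible sum of rods was higher in transplanted cells, 211 against 139 in cultured cells, as was the constitutive sum, 1718 against 888. In other cells the ratio was higher in 3 of 3 Sets, by 0.60, 1.62 and 0.45, with 13.3%, 24.8% and 26.9% in transplanted and 8.76%, 8.07% and 19.7% in cultured samples. Averaged over Sets the differences were 0.33 ± 0.60 in rods, 0.46 ± 0.70 in cones, 0.47 ± 0.71 in Müller glia and 0.89 ± 0.64 in other cells (SD, n = 3). This rests on where HSP90AA1, which heat also raises, is counted: with it among the inducible members the mean differences were -0.075 in rods, 0.29 in cones, -0.15 in Müller glia and -0.056 in other cells.

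**Figure D4:**
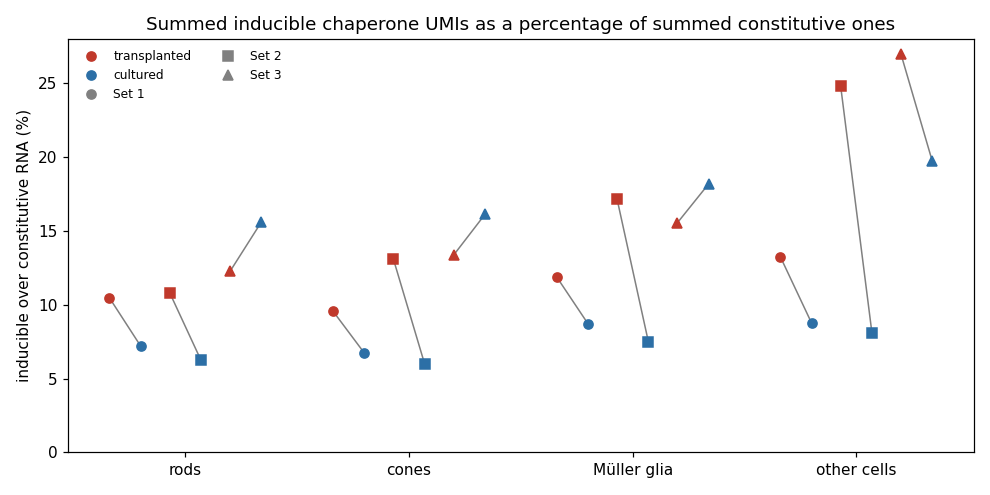
Summed inducible members as a percentage of the summed constitutive members HSPA8 and HSP90AA1, with transplanted (red, left) joined to cultured (blue, right) of the same Set in each class. The lines fall to the right in Sets 1 and 2 of each class and rise in Set 3 of rods, cones and Müller glia, while Set 3 of other cells falls, with 26.9% in transplanted and 19.7% in cultured cells.

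Independent of transplantation, some members differed in level between classes of the same sample (edgeR with the sample as a block, a comparison added after the data had been seen). BAG3 was 2.17-fold higher in Müller glia than in rods (log2 1.12 ± 0.17, adjusted p = 4.32e-05) and HSPB1 likewise (0.97 ± 0.14, adjusted p = 3.44e-05), each in 6 of 6 samples. HSPH1 was 1.27-fold higher, in 5 of 6 samples (0.34 ± 0.12, edgeR adjusted p = 0.0267). These are 3 of 9 members, beside 21.1% of 16044 genes called higher in Müller glia, so the count is not far above the background. Against cones, BAG3 and HSPB1 were 2.28-fold and 2.21-fold higher in Müller glia (edgeR adjusted p of 0.000136 and 5.56e-07). They were the only members called of the 10 tested, beside 21.6% of 15746 genes, so the count is not above the background. In other cells HSPA6, HSPH1 and BAG3, of 10 members tested, were 7.81-fold, 1.80-fold and 1.67-fold above rods in 6 of 6 samples (edgeR adjusted p of 0.000739, 0.00460 and 0.0244), beside 13.6% of 17991 genes. No member was called between cones and rods, where 14.6% of genes were called in either direction; HSPA1A was 0.837-fold in cones, lower in 6 of 6 samples (edgeR adjusted p = 0.0851).

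The share of rods with an HSPA1A UMI was 22.8%, 24.6% and 14.5% in transplanted and 4.56%, 6.99% and 2.53% in cultured samples. With each cell thinned to 1000 UMIs it was 3.93%, 4.09% and 2.11% in transplanted and 1.13%, 0.911% and 0.843% in cultured rods, close to the level of a single UMI. For scale, NR2E3, a rod gene that Müller glia should lack, was found in 1.97%, 4.0% and 14.4% of transplanted and 1.98%, 3.95% and 16.1% of cultured Müller glia without thinning. Median UMIs per cell were 4527, 5913 and 5632 in transplanted rods and 3316, 6488 and 4063 in cultured rods, and 5420, 5954 and 6827 in transplanted Müller glia and 3368, 7090 and 3265 in cultured ones. The HSPA1A shares in transplanted rods of Sets 1 and 2 were above the NR2E3 shares of their samples. That of transplanted Set 3 was about the same, and that of cultured Set 3 was below it. But NR2E3 had far more UMIs in rods than HSPA1A, 5601 against 439 in transplanted and 588 against 15 in cultured Set 3. Its Set 3 shares also rested on 17 of 118 and 5 of 31 Müller glia. The NR2E3 shares thus set no floor for HSPA1A, and no conclusion on stray HSPA1A RNA is drawn in any Set.

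Cells with an HSPA6 UMI were rare, and the other chaperones were higher in them. They made up 0.464%, 1.16% and 2.18% of transplanted cells (34, 8 and 101 cells) and 0.222%, 0.493% and 0.538% of cultured cells (34, 48 and 10 cells). Within each of the 6 samples these cells had more HSPA1A, HSPA1B, DNAJB1, BAG3, HSPB1, HSPH1, HSP90AA1 and HSPA8 than the remaining cells, a split made after the data had been seen. Cells of all classes were pooled, so level differences between classes were not removed. Of the cells with HSPA6, 15, 6 and 67 transplanted and 11, 25 and 7 cultured ones were other cells. Transplanted Set 2 gave only 3 HSPA1A UMIs in its 8 cells, and HSPA8 in transplanted Set 1 differed by log2 0.06. The median log2 ratio over samples was 3.71 for HSPA1A, 3.37 for HSPA1B, 2.93 for DNAJB1, 2.80 for BAG3, 1.93 for HSPB1 and 1.80 for HSPH1. It was lower for HSP90AA1 (0.83) and HSPA8 (0.69). CRYAB was higher in 5 of 6 samples and NR2E3 in 1 of 6. The median UMI count of these cells was 3458, 4149 and 4343 in transplanted and 2748, 4294 and 1939 in cultured samples, against 3208, 3334 and 3395 in the remaining transplanted and 2765, 4110 and 2119 in the remaining cultured cells.

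**Figure D5:**
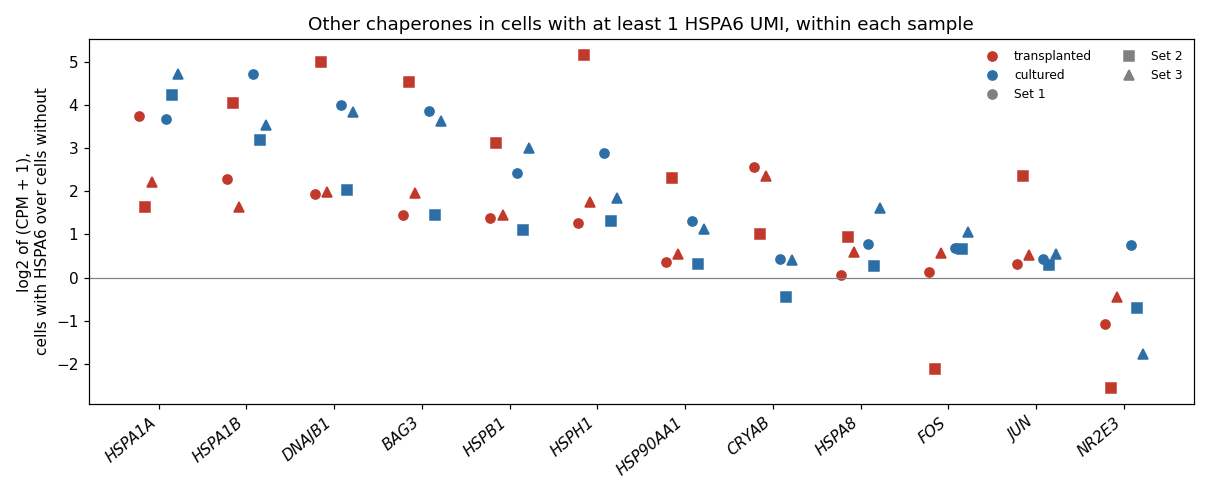
Log2 ratio of CPM plus 1 in cells with at least 1 HSPA6 UMI over cells without, 1 point per sample (transplanted red on the left, cultured blue on the right). HSPA1A, HSPA1B, DNAJB1, BAG3, HSPB1 and HSPH1 lie above 1 in all 6 samples, HSP90AA1 and HSPA8 lie above 0 but lower, and NR2E3 lies below 0 in 5 of 6.

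Cells with an HSPA1A UMI after thinning were set against the remaining cells of their class. Among other cells, in the 4 samples with at least 20 such cells, all members but CRYAB were higher in 4 of 4, with median log2 ratios of 5.63 for HSPA6, 3.42 for HSPA1B, 2.61 for DNAJB1, 1.47 for HSPH1 and 1.43 for BAG3. Among rods HSPA1B and HSPA6 were higher in 4 of 4 samples (0.77 and 2.33 at the median), DNAJB1 in 2 of 4, HSPH1 in 1 of 4 and HSPB1 in 0 of 4. HSPA6 rested there on very few UMIs. It had 4.36 and 67.8 CPM in 66 and 27 such rods of transplanted Sets 1 and 3. In 31 and 28 such rods of cultured Sets 1 and 2 it had 6.14 and 7.21 CPM. All rods of these cultured samples held 8 and 26 HSPA6 UMIs. These are descriptions of cells within samples, and the difference between classes was not tested.

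Around the 10 members, some other chaperones were called, mostly in rods, where 2.14% of all genes were called higher and 2.12% lower. In rods, 2 of 13 tested HSP90 partners rose, CHORDC1 by 1.02 ± 0.21 and AHSA1, which activates the ATPase of HSP90, by 0.83 ± 0.21 (edgeR adjusted p of 0.0108 and 0.0345), with a list median of 0.38 against -0.02 for all genes. CHORDC1 had 72.3, 61.5 and 48.0 CPM in transplanted and 41.8, 31.7 and 26.8 in cultured rods, without overlap, and it rose in cones too (1.28 ± 0.26, edgeR adjusted p = 0.0356), 1 of 13 there beside 0.238% of genes. Of 12 chaperones of the endoplasmic reticulum, DNAJB9 rose in rods (0.82 ± 0.20, edgeR adjusted p = 0.0283) and in cones (1.26 ± 0.25, adjusted p = 0.0319). Of 13 other J-domain proteins in rods, DNAJC5, a synaptic vesicle co-chaperone, fell by 0.84 (SE 0.20, edgeR adjusted p = 0.0213). Among 14 other genes that heat shock is known to raise, DEDD2, CHORDC1 and JUN rose in rods (1.28, 1.02 and 1.34) and HMOX1, heme oxygenase, fell by 1.47 (edgeR adjusted p of 0.00554, 0.0108, 0.0352 and 0.0452). In other cells RGS2 rose by 1.41 and HMOX1 fell by 1.88 (edgeR adjusted p of 0.0446 and 0.00627), 1 of 14 each way beside 0.371% of genes higher and 0.338% lower. Of the heat shock factors, other HSP70 genes, BAG proteins and other HSP70 regulators, other small heat shock proteins, mitochondrial chaperones and the cytosolic chaperonin, none was called in any class.

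The genes whose levels followed HSPA1A most closely over the 24 class sums, after the mean of each class was removed, were ABTB1 (Pearson r 0.89), JUN (0.88), RNF113A (0.86), JUND (0.85), KBTBD3 (0.85), NAT9 (0.84), YPEL3 (0.83) and IER2 (0.82), out of 10986 genes with a mean of at least 10 CPM. The points share libraries and the pairing by group, so these are descriptions. HSPA1B ranked 66th (0.72) and DNAJB1 138th (0.66). JUN, JUND and IER2 are immediate early genes, which tissue dissociation is known to raise. A list of 25 such genes summed to 6096, 4967 and 3659 CPM in transplanted and 3931, 2141 and 2541 in cultured rods, and was higher in transplanted samples in 3 of 3 Sets of every class. Mitochondrially encoded genes summed to 40135, 22649 and 27978 in transplanted and 16561, 24864 and 14068 in cultured rods. The part of either in the chaperone changes was not tested.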

How the data were processed

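The deposited files hold raw UMI counts (1 value for each gene in each barcode), which the authors left unscaled. Per the file headers, the authors used Cell Ranger 6.0.2 for Set 1 and 7.1.0 for Sets 2 and 3; the build is GRCh38 per the submitters' processing notes, and libraries were 10X 3′ per the labels' protocols. Whether intronic reads were counted is not given in the sources used here.

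Cells with at least 1000 UMIs, 500 genes and at most 20% mitochondrially encoded UMIs were kept. Scrublet (Scanpy 1.11.5, 30 components) called at most 2 doublets per library by its own threshold, so the top scores, up to 0.8% per 1000 cells, were removed. Cells were assigned to cones first, then rods, then Müller glia. Counts were summed per class and sample (at least 20 cells) and tested in edgeR 4.0.16 (R 4.3.3; TMM, filterByExpr, robust quasi-likelihood) with the Set as a block, at an adjusted p of 0.05, with DESeq2 1.42.0 as an alternative. The labels say that both samples of an experiment came from 1 organoid batch, which pairs the Sets. Same-Set deviations correlated at 0.56 to 0.92 in rods and 0.32 to 0.87 in cones. In Müller glia they correlated at 0.07 to 0.76, and in other cells at 0.58 to 0.93. Transplanted Sets 1 and 3 correlated most with the cultured sample of their own Set in every class. Transplanted Set 2 did not. It correlated as much or more with cultured Set 3, at 0.56 in rods, 0.42 in cones, 0.27 in Müller glia and 0.71 in other cells. These correlations thus do not show the pairing of Set 2. Alternatives were no Set term, other size factors, no filter on low counts, stricter cells (at least 2000 UMIs, at most 10% mitochondrial), no doublet removal, other class rules, each Set left out, and dropping cells below the 1st percentile of the clone-named share of cultured cells of their Set. The script was tested on simulated data. The values of a single marker gene are not reported here.

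All 10 members are named in each class, with up to 4 called genes of each chaperone list by smallest p and the 8 genes most like HSPA1A. The members and lists, and the choice of the blocked test, were made with earlier results of these data known. Limits given for a count of 0 cover counting error only. Gene positions are from GENCODE release 29 and promoters from RefSeq.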

Additional observations from a re-analysis of the deposited data

How the results depend on the processing

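Of 583 alternatives for single members and classes, 539 kept the side of the threshold, 22 lost a call and 22 gained one; the sign differed in 60, none of them called under either setting. The cause of the changes below was not tested. Without the replicate block, counts of genes called were 0 in each class, against 769 in rods, 98 in cones, 55 in Müller glia and 132 in other cells with the pairing by Set. Without 1 Set the counts ranged from 176 (without Set 3) to 978 in rods, from 6 (without Set 2) to 502 (without Set 3) in cones, from 1 (without Set 1) to 154 (without Set 3) in Müller glia and from 22 (without Set 1) to 609 (without Set 3) in other cells. Dropping cells with a low clone-named share gave 1198, 268, 111 and 214 in that order of classes. Dropping cells that met 2 class rules gave 503 in rods and 351 in cones, and left the cells of the other classes as they were. Testing all genes without a filter on low counts gave 365 in cones and 433 in other cells, DESeq2 gave 5 in Müller glia and 335 in other cells, stricter cells gave 33 and 62 there, and DESeq2's size factors gave 100 in Müller glia. A marker count of at least 2 gave 35 in cones. For differences of response, Müller glia against rods had 0 genes called, 1 with the lower marker count and 20 to 31 without 1 Set; cones against rods had 4, and 0 to 38; Müller glia against cones had 23, 7 and 15 to 52. With HSP90AA1 counted as inducible, the mean ratio difference in other cells was -0.056. Not thinned, the share of cells with HSPA1A, transplanted minus cultured, was 15.9, 16.0, 7.75 and 2.89 points in rods, cones, Müller glia and other cells. Thinned, it was 2.42, 0.615, 1.51 and 1.32 points. Thinned cones had 3.66%, 0% and 1.75% in transplanted and 0.656%, 0.525% and 2.38% in cultured samples, so Sets 2 and 3 were lower in transplanted cones. The thinned share of transplanted Müller glia rested on 1 of 25 cells in Set 2 and was 0% in both samples of Set 3. Without the cell richest in HSPA6 of each sample, chosen after seeing the data, its mean log2 difference in other cells was 1.97, against 2.32. Stricter cells and the drop of cells with a low clone-named share left Müller glia with Sets 1 and 3 only. Depth limits the inducible members in Müller glia: 25 transplanted cells of Set 2 and 31 cultured cells of Set 3 allow up to 19.8 and 20.4 CPM at a count of 0.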
